A study of Mus musculus with 4 samples.

Results

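The collagen genes of the mouse ovary were described in single-cell RNA sequencing data from 4 treatment groups. Members were all gene symbols in the deposited feature lists that read Col, a number, a and a number, which gave 44 of 32285 genes. They comprised 11 fibrillar genes, 6 type IV genes, 6 type VI genes, 9 FACIT or FACIT-like genes (collagens that sit on the surface of fibrils), 2 multiplexins, 4 transmembrane collagens, 3 short-chain genes, 1 anchoring fibril gene and 2 others. Ovaries came from prepubertal mice of postnatal day 25. The control group received PBS or saline (labelled PBS/Saline), the doxorubicin group 3 mg/kg of this DNA-damaging anthracycline, the doxorubicin+AMH group the same doxorubicin with 0.75 mg/kg of recombinant human anti-Müllerian hormone (AMH), and the AMH group 0.75 mg/kg of AMH alone. Doxorubicin was given as 2 weekly doses, and tissue was taken 4 hours after the second. The schedule of AMH, and the dose from which the 4 hours were counted in the control and AMH groups, are not reported here. Each group was 1 library, made from the pooled cells of 5 animals that gave 1 ovary apiece. The spread between animals was therefore not measured, no test between groups was made, and a treatment cannot be told apart from its library. The strain and the route of dosing are not given in the sources used here. The ovaries were dissociated with collagenase A and papain and passed through a filter.

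Collagens are trimeric proteins of the extracellular matrix. Fibrillar collagens (types I, III, V and XI among them) form the tensile fibrils of connective tissue, type IV forms the sheet-like network of basement membranes in fixed trimers of its chains, and type VI forms beaded filaments between them. In the ovary, a basement membrane separates the granulosa cells of each follicle from the theca layer, while fibrillar collagen fills the stroma around the follicles and the walls of larger vessels. AMH is a granulosa-cell hormone of growing follicles.

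The promoters of the most abundant fibrillar genes and the starts of the paired type IV genes are shown here because the levels below return to these genes. Sequences are RefSeq's, build GRCm38.p6, which corresponds to the mm10 build of the submitters' processing notes, and read 5′ to 3′. The first 2 hold the bases before the RefSeq start of Col1a2 (chr6:4505368-4505617, plus strand) and Col3a1 (chr1:45311288-45311537, plus strand), with capitals marking the letters of a TATA box (TATAAA), of a CAAT box (CCAAT) or of a GC box (GGGCGG) on either strand.
Col1a2: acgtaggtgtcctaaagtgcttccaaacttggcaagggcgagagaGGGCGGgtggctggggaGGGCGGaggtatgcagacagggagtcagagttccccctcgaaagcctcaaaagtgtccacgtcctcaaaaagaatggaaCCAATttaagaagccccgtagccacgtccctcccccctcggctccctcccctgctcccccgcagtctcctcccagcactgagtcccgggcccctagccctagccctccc
Col3a1: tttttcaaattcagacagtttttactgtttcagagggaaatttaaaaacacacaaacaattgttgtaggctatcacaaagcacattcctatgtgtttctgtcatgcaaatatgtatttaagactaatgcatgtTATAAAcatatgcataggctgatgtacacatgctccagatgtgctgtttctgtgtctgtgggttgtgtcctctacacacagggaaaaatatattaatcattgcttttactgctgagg
Col1a2 had 2 GGGCGG and 1 CCAAT matches and no TATAAA, whereas Col3a1 had 1 TATAAA match and neither of the others. Over 38 promoters of 35 members, GGGCGG was present in 22 (57.9%), against 32.7% of 32851 RefSeq promoters of the same length. CCAAT was present in 13 members' promoters (34.2%, against 33.8% of all) and TATAAA in 5 (13.2%, against 12.4% of all). Such a match describes letters only.

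Of the 6 type IV genes, all lie as neighbours in head-to-head pairs. Col4a1 (minus strand) and Col4a2 (plus strand) on chromosome 8 overlap by the 22 bases in capitals, given on the plus strand with 4 bases on each side (chr8:11312801-11312830).
Col4a2 and Col4a1: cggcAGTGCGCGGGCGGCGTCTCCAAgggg
Between the starts of Col4a4 (minus strand) and Col4a3 (plus strand) on chromosome 1 lie only 71 bases, given on the minus strand (chr1:82586850-82586920), in which none of the 3 motifs was present.
Col4a4 and Col4a3: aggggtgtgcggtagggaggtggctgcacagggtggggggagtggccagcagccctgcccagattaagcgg
The RefSeq starts of Col4a6 and Col4a5 on chromosome X lie 1342 bases apart. In GENCODE M21, 13 members overlap a gene of the opposite strand that is also in the feature lists, such as Slc19a1 over Col18a1. Whether counting used strand is not given in the sources used here, so reads of such overlaps cannot be told apart.

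Cells were grouped by marker genes that included no collagen. A group named from such markers is called X-like, and its clusters are named by number and leading gene. Where 4 values are listed without names, control comes first, then doxorubicin, then doxorubicin+AMH, and AMH last. Levels are counts of unique molecular identifiers (UMIs, 1 per captured transcript) summed over the cells of a class in a library, per 1000000 UMIs of that class and library (CPM). They follow transcript ends and are compared for the same gene between cells, not between genes. In such sums, fewer expressing cells and fewer transcripts per cell cannot be told apart. After filtering, 7998 control cells, 6078 doxorubicin cells, 6593 doxorubicin+AMH cells and 7962 AMH cells remained, from 138647495 to 178279122 UMIs deposited per library. Between 11 and 24 barcodes were shared by any 2 libraries, at most 0.281% of the smaller one. Classes with at least 50 cells in every library were granulosa-like, theca-like, stroma-like, adventitial fibroblast-like, smooth muscle-like, pericyte-like, blood endothelial-like and macrophage-like. The other 6 named classes, 3 of them lymphocyte-like or erythroid-like, give levels only. Clusters 28 and 31 stayed unnamed and enter no comparison. They held 254 cells of the doxorubicin library and 1 to 4 cells of each other library, and were led by a mix of granulosa and smooth muscle genes (cluster 28) and by Amh (cluster 31). Collagen genes took 0.366% of all control UMIs, 0.364% of those with doxorubicin, 0.298% with both agents and 0.27% with AMH.

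Of the 44 members, 32 reached a mean of 20 CPM over the 4 libraries in at least 1 class, and 2, Col4a1 and Col4a2, did so in all 8 larger classes. Macrophage-like cells held only 0.300 and 0.222 UMIs per cell of these 2 genes. Erythroid-like cells, which should lack both, held 0.402 and 0.244, so no expression in macrophage-like cells is read from them. Col2a1, Col9a1 and Col10a1, collagens known from cartilage, stayed below 1 CPM everywhere. The other 9 members below 20 CPM still had a class of highest level. Col22a1 averaged 11.4 CPM in theca-like cells and at most 1.1 CPM in the other larger classes. Col8a1, of the short-chain network known from vessel endothelium, averaged 13.3 CPM in blood endothelial-like and 14.3 CPM in lymphatic endothelial-like cells. Col8a2 averaged 15.3 CPM in adventitial fibroblast-like cells, Col7a1, the anchoring fibril chain, 9.8 CPM there, and Col24a1 11.6 CPM in stroma-like cells. Col9a3, Col11a2, Col17a1 and Col28a1 reached at most 7.0 CPM in any larger class.

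**Figure D1:**
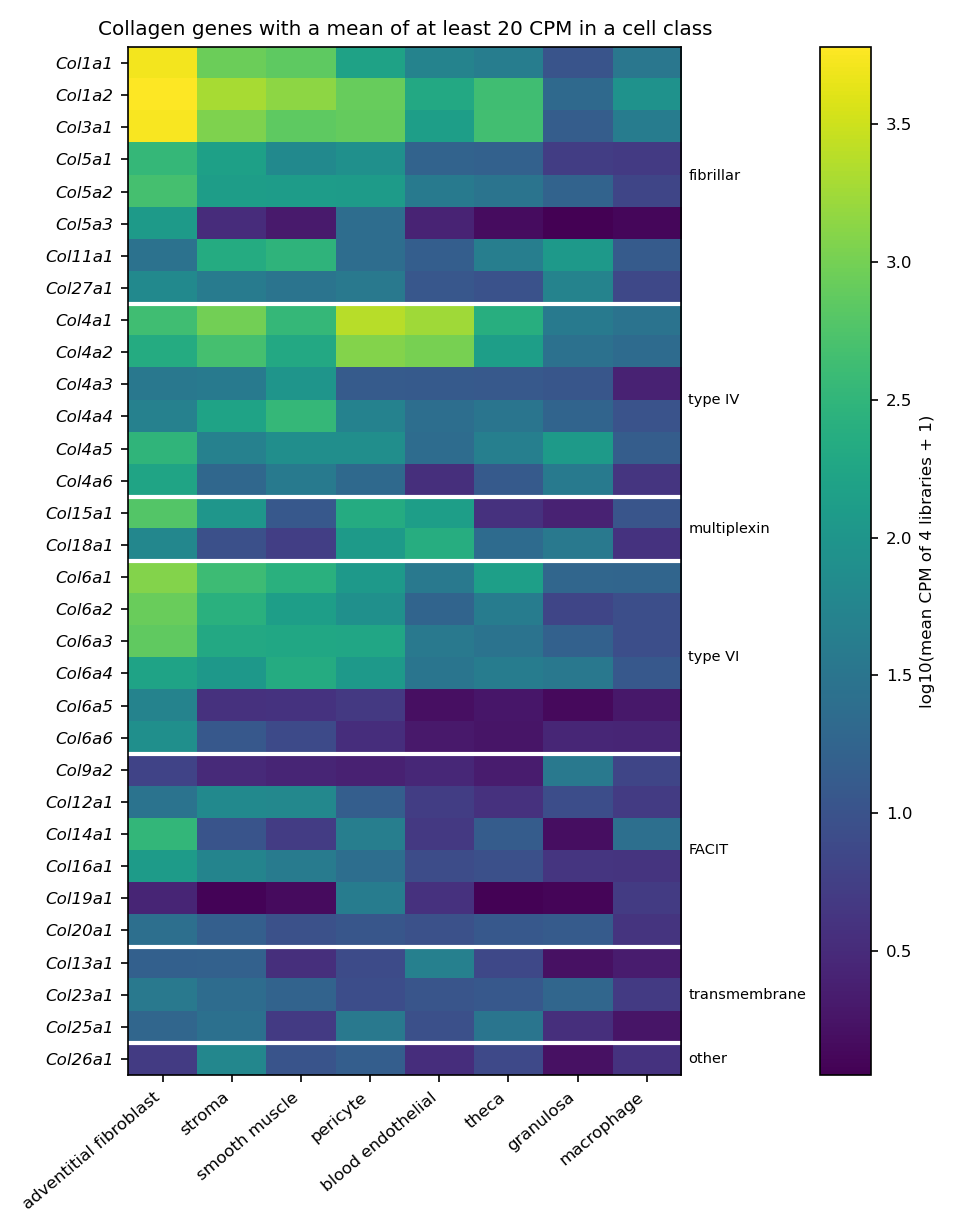
Mean level of the 32 collagen genes that reached 20 CPM, as log10(CPM + 1) of the mean of the 4 libraries (colour), in the 8 marker-defined cell classes with at least 50 cells per library (columns). Genes are ordered by collagen type. The fibrillar and type VI genes other than Col11a1 and Col6a4 are brightest in adventitial fibroblast-like cells, and Col4a1 and Col4a2 in pericyte-like and blood endothelial-like cells.

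Fibrillar collagen was most abundant in adventitial fibroblast-like cells (cluster 13, led by Clec3b and Dpt), the cells that sheathe larger vessels and the organ's outer layers. The summed fibrillar level there was 21790 CPM in control, 18970 with doxorubicin, 13630 with both agents and 17510 with AMH. With each cell gated by its own markers the log2 ratio of doxorubicin over control was 0.26 in place of -0.20. Every library was above the highest stroma-like value, since stroma-like cells ranged from 4001 to 4849 CPM. Smooth muscle-like cells ranged from 2959 to 3712 CPM, theca-like cells from 787 to 1298 CPM and granulosa-like cells from 183 to 274 CPM. The summed stroma markers ranged from 7667 to 10040 CPM in adventitial fibroblast-like, 2768 to 2978 CPM in stroma-like and 2286 to 2605 CPM in smooth muscle-like cells. These classes thus share markers, and what this has to do with the order of collagen levels was not tested. Col1a2, a chain of type I collagen, averaged 6041 CPM in adventitial fibroblast-like cells (4490 to 7459 over the libraries) and 1958 CPM in stroma-like cells (1780 to 2095). Col3a1, which forms type III collagen, averaged 5635 CPM there (4633 to 6973) and 1151 CPM in stroma-like cells (972 to 1261). Col5a3, a type V chain, was more uneven. It averaged 119 CPM in adventitial fibroblast-like, 22.8 CPM in pericyte-like and 2.3 CPM in stroma-like cells. Col11a1, a minor fibrillar chain, had a different order. It averaged 296 CPM in smooth muscle-like and 220 CPM in stroma-like cells, whose ranges over the libraries overlapped (230 to 345 and 189 to 246.4 CPM), 113 CPM in granulosa-like and 27.3 CPM in adventitial fibroblast-like cells. Col27a1, known from cartilage fibrils, averaged 64.1 CPM in adventitial fibroblast-like and 50.6 CPM in granulosa-like cells, again with ranges that overlapped (52.2 to 87.9 and 43.6 to 57.7 CPM).

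The 2 type I chains differed in balance between cells. Type I collagen is built from Col1a1 and Col1a2 chains. There were 0.808 to 1.01 Col1a1 UMIs per Col1a2 UMI in the adventitial fibroblast-like cells of the 4 libraries. The ratio was 0.418 to 0.463 in stroma-like and 0.464 to 0.538 in smooth muscle-like cells. Theca-like cells had 0.0857 to 0.112, below every library of those 3 classes, and pericyte-like cells 0.123 to 0.227. Detection of the transcripts of each gene can differ, so only the change of the ratio between cell classes is described.

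Type IV collagen had a different distribution, and its 3 gene pairs differed from each other. Col4a1 and Col4a2, the ubiquitous basement membrane chains, were highest in pericyte-like cells, with means of 2361 CPM (1775 to 2696) for Col4a1 and 1240 CPM (952 to 1350) for Col4a2. Blood endothelial-like cells followed with 1749 CPM (1573 to 1879) for Col4a1, a range that overlapped. Stroma-like cells averaged 978 CPM for Col4a1, and within them the Enpep-led cluster 10 reached 2111 CPM against 265 CPM in the Penk-led cluster 3. Granulosa-like cells averaged 37.9 CPM for Col4a1 and 26.4 CPM for Col4a2, below the 70.0 and 41.5 CPM of erythroid-like cells, which should lack both. The granulosa-like cells were deeper, however, with 1.05 Col4a1 UMIs per cell against 0.402 in erythroid-like, 0.300 in macrophage-like and 0.70 in T or NK lymphocyte-like cells. The balance of the pair lay at 1.66 to 2.14 Col4a1 UMIs per Col4a2 UMI across the libraries of stroma-like, adventitial fibroblast-like, smooth muscle-like, pericyte-like and theca-like cells. It was 1.60 to 1.76 in blood endothelial-like, 1.31 to 1.54 in granulosa-like and 0.762 to 1.91 in macrophage-like cells.

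Col4a3 and Col4a4, chains of the tissue-restricted type IV network, were highest in smooth muscle-like cells. Col4a4 averaged 336 CPM (313 to 364) there against 163 CPM (148 to 178) in stroma-like cells. Col4a3 averaged 97.0 CPM (81.4 to 106) against 37.5 CPM in the same classes. Among stroma-like clusters, Col4a4 was highest in the Penk-led cluster 3, at 294 CPM against 95.8 to 169 CPM in the other 4. Col4a5 and Col4a6 had their highest level in adventitial fibroblast-like cells, with means of 313 and 169 CPM. Surface epithelial-like cells averaged 179 CPM for Col4a5, and granulosa-like cells 121 CPM (104 to 136), with 3.42 UMIs per cell against 0.111 in erythroid-like cells. Within the granulosa-like class Col4a5 ranged from 23.8 CPM in the Hsd17b1-led cluster 15 to 244 CPM in the Kcnq5-led cluster 4.

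The multiplexins, proteoglycan-like collagens of the basement membrane zone, split by cell type. Col15a1 averaged 602 CPM (437 to 738) in adventitial fibroblast-like, 217 CPM in pericyte-like, 137 CPM in blood endothelial-like and 102 CPM in stroma-like cells, but 2.8 CPM in theca-like and 1.6 CPM in granulosa-like cells. Col18a1, the source of endostatin, averaged 272 CPM in lymphatic endothelial-like cells, 234 CPM (180 to 291) in blood endothelial-like cells and 122 CPM in pericyte-like cells. In granulosa-like cells its level lay almost wholly in cluster 11, led by Cntn4, Cdh12 and Amh, at 214 CPM. Cluster 12, led by Spef2, had 34.3 CPM and the other 5 granulosa-like clusters 2.9 to 8.2 CPM.

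**Figure D2:**
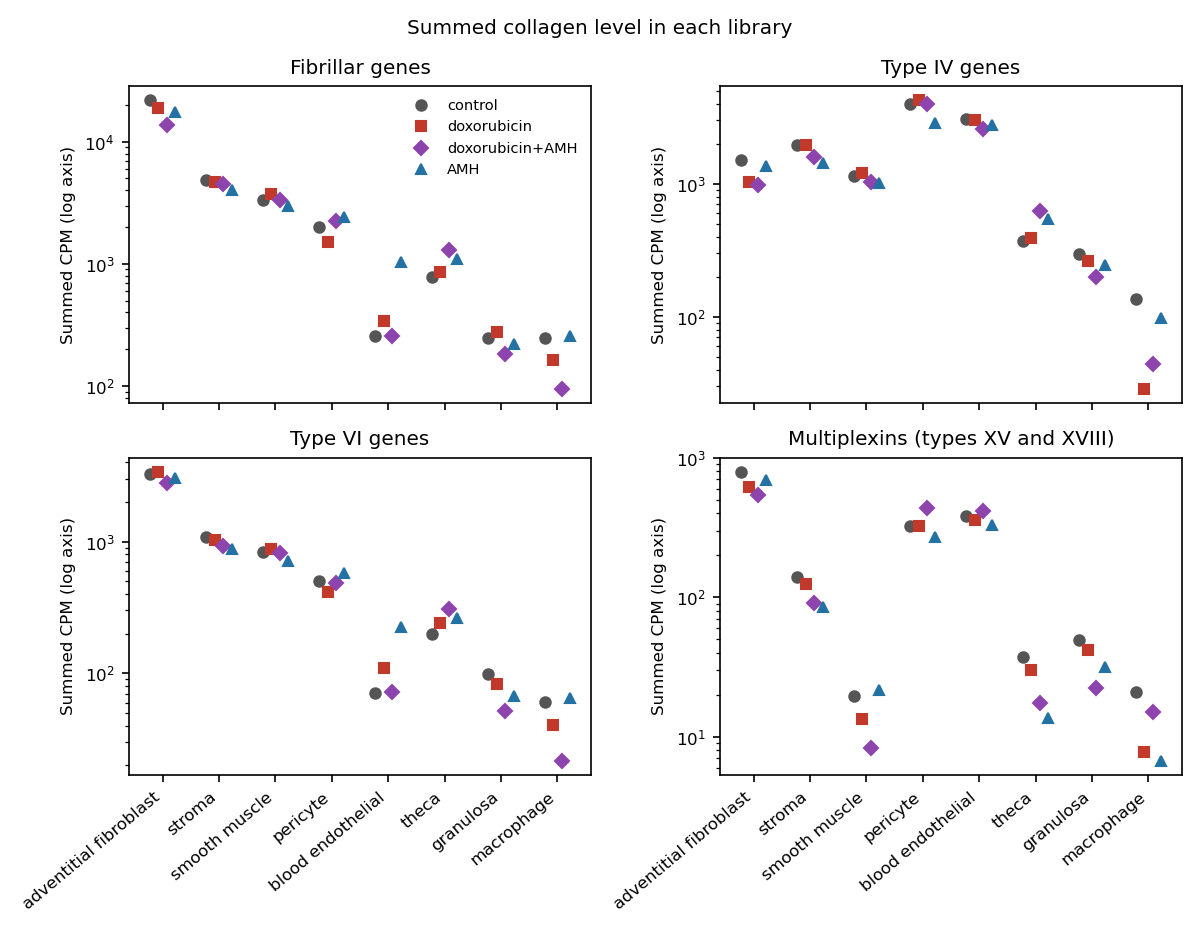
Summed CPM (log axis) of the fibrillar, type IV, type VI and multiplexin genes in the 8 larger cell classes. Each symbol is 1 library. Fibrillar sums are highest in adventitial fibroblast-like cells (13630 to 21790 CPM), type IV sums in pericyte-like and blood endothelial-like cells, and the AMH library stands above the other 3 for fibrillar genes in blood endothelial-like cells (1031 against 255 to 343 CPM).

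Col6a1, Col6a2 and Col6a3, the chains of the common type VI trimer, were highest in adventitial fibroblast-like cells. Stroma-like cells came second among the 8 larger classes. Col6a1 averaged 1245 CPM (1062 to 1452) in adventitial fibroblast-like, 555 CPM in surface epithelial-like and 400 CPM in stroma-like cells. Col6a2 averaged 841, 388 and 256 CPM in the same 3 classes. Surface epithelial-like cells had little of the remaining chain, with 22.9 CPM of Col6a3 against 737 CPM in adventitial fibroblast-like cells. The alternative chains Col6a4, Col6a5 and Col6a6 are consecutive genes on chromosome 9, yet they differed in distribution. Col6a4 averaged 218 CPM in smooth muscle-like and 160 CPM in adventitial fibroblast-like cells, while Col6a5 and Col6a6 averaged 50.4 and 80.5 CPM in adventitial fibroblast-like cells and at most 11.1 CPM in the other 7 larger classes.

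FACIT and transmembrane members marked narrower sets of cells. Col14a1, a fibril-associated collagen, averaged 331 CPM (249 to 393) in adventitial fibroblast-like, 59.5 CPM in surface epithelial-like and 42.9 CPM in pericyte-like cells. Col16a1 averaged 122 CPM in adventitial fibroblast-like and 52.7 CPM in stroma-like cells. Col19a1 was highest in pericyte-like cells, with 41.2, 37.9, 45.4 and 38.0 CPM in the 4 libraries, from 24 to 47 UMIs each. Its mean was at most 3.9 CPM in the other larger classes. Col9a2, a type IX chain best known from cartilage, averaged 35.3 CPM in granulosa-like cells and at most 5.7 CPM in the other larger classes. Col13a1, a transmembrane collagen, averaged 45.9 CPM in blood endothelial-like cells, and Col23a1 336 CPM in lymphatic endothelial-like cells (204 to 595) against at most 51.1 CPM elsewhere. Col26a1 averaged 57.9 CPM (53.8 to 61.1) in stroma-like cells and at most 13.6 CPM in the other classes.

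Collagen UMIs were also counted in blood cells. Erythroid-like cells averaged 97.5 CPM of Col1a2 and 94.95 CPM of Col3a1, and T or NK lymphocyte-like cells 213 and 176 CPM, highest in the control library (554 and 447 CPM) and lowest in doxorubicin (4.99 and 25.0 CPM). Granulosa-like cells had 0.565 Col1a2 UMIs per cell, against 0.62 in erythroid-like cells, and macrophage-like cells had 0.868. Col1a1 was 0.268 per granulosa-like cell against 0.214 per erythroid-like cell, and Col3a1 0.37 against 0.632. No difference between libraries is read from these genes in granulosa-like cells. Col9a2 (0.972 UMIs per granulosa-like cell against 0.0299 per erythroid-like cell), Col11a1 (3.13 against 0.0855) and Col18a1 (0.97 against 0.0385) were further above the erythroid-like value.

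Libraries were then compared within each class by 4 ratios. Doxorubicin was compared with control, and doxorubicin+AMH with AMH. AMH was compared with control, and doxorubicin+AMH with doxorubicin. The 2 ratios for a treatment share no library, while ratios for different treatments do. A member counted as higher or lower when its ratio passed 1.5-fold and its mean was at least 20 CPM. A gene near that mean can pass it through the libraries where it is high, so the counts are descriptions. Intervals are exact 95% intervals of the ratio and cover counting error only.

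In granulosa-like cells most members past the fold were lower in a library with AMH than in its counterpart without. Of 9 members that passed the filter, 0 were past 1.5-fold between doxorubicin and control, against 0.212% of 6611 genes tested, and 1, Col6a4, was lower in doxorubicin+AMH than in AMH (0.923% of genes). Between AMH and control 2 members were lower (2.96% of genes), and between doxorubicin+AMH and doxorubicin 6 were lower (3.75% of genes). None was higher in either. Col9a2 and Col18a1 were lower in both AMH comparisons, against 1.77% of genes called in 1 direction in both.

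Col9a2 passed 1.5-fold in both AMH comparisons under each of 11 alternative settings. Its level was 48.0 CPM in control and 46.9 with doxorubicin, but 24.0 with both agents and 22.2 with AMH alone. Both libraries with AMH thus lay below both without, with a wide gap. The log2 ratio was -1.11 for AMH over control (interval -1.20 to -1.03) and -0.97 for doxorubicin+AMH over doxorubicin (-1.06 to -0.88). Col9a2 was lower in all 7 granulosa-like clusters in both comparisons. In cluster 7, led by Inhbb, it was 44.1, 38.7, 18.4 and 15.3 CPM in the 4 libraries, and in cluster 11 it was 53.9, 48.3, 12.9 and 14.3 CPM. In cluster 5, led by Fshr, it was 57.0, 67.2, 45.3 and 40.1 CPM, and in cluster 4, led by Kcnq5, 57.2, 57.2, 42.1 and 32.7 CPM.

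Col11a1 was also lower in both libraries with AMH than in both without. It was 130 CPM in control, 157 with doxorubicin, 75.8 with both agents and 89.2 with AMH. The log2 ratio was -1.05 for doxorubicin+AMH over doxorubicin (interval -1.10 to -0.9998), and -0.54 for AMH over control (-0.59 to -0.50), which is short of 1.5-fold. Here too all 7 clusters were lower in both comparisons. In cluster 5 the values were 168, 203, 85.1 and 89.2 CPM, and in cluster 4 they were 288, 374, 220 and 191 CPM.

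For Col18a1 the class and its main cluster differed in direction. The class held 47.8 CPM in control, 40.1 with doxorubicin, 20.8 with both agents and 30.2 with AMH, with log2 ratios of -0.66 for AMH over control and -0.95 for doxorubicin+AMH over doxorubicin. Cluster 11, the only cluster with a high level, made up 16.4% and 16.3% of granulosa-like cells in control and doxorubicin but 7.16% and 7.78% in doxorubicin+AMH and AMH. Inside cluster 11 the level of Col18a1 was 207, 166, 196 and 287 CPM in the 4 libraries. With the mix of clusters held fixed the ratios were 0.42 and 0.16. In the AMH library the level within cluster 11 was thus above control, while the share of the cluster was smaller.

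Col4a1 in granulosa-like cells was 44.9, 47.7, 26.5 and 32.5 CPM in the 4 libraries, and Col4a2 was 30.8, 31.0, 20.2 and 23.7 CPM. Per cell, Col4a1 stood at 1.05 UMIs against 0.402 in erythroid-like and 0.70 in T or NK lymphocyte-like cells (0.475 without the control library), and Col4a2 at 0.738 against 0.244 and 0.357 (0.209). The part of RNA from other cells in these levels was not tested. Both were lower in doxorubicin+AMH than in doxorubicin, at log2 ratios of -0.85 and -0.62. With a fixed mix of clusters these were -0.46 and -0.29, short of 1.5-fold. Col6a4, at 39.1, 35.7, 22.1 and 37.7 CPM, was low in the doxorubicin+AMH library alone. The summed type IV level was 298, 264, 198 and 245 CPM, a log2 ratio of -0.41 (interval -0.45 to -0.38) between doxorubicin+AMH and doxorubicin, and -0.13 with a fixed mix of clusters. Col4a5 was 136, 119, 104 and 127 CPM, and no ratio of it passed 1.5-fold.

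**Figure D3:**
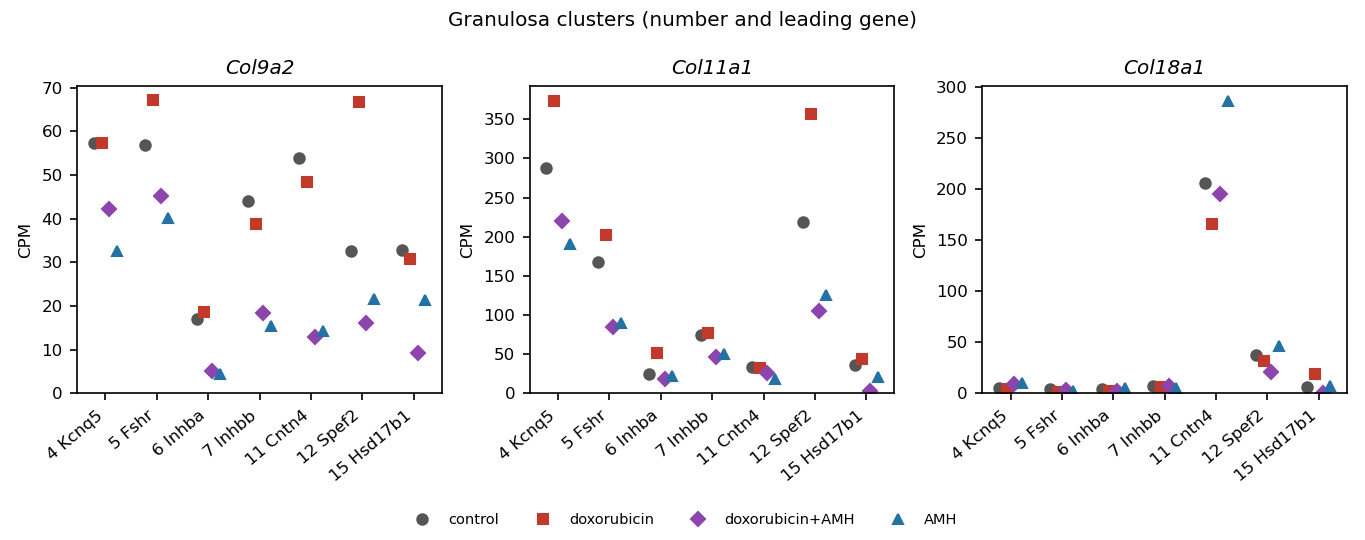
Levels in CPM of Col9a2, Col11a1 and Col18a1 in the 7 granulosa-like clusters (number and leading gene on the horizontal axis). Each symbol is 1 library. For Col9a2 and Col11a1 the AMH symbol lies below control and the doxorubicin+AMH symbol below doxorubicin in all 7 clusters, whereas Col18a1 is high in cluster 11 of every library (166 to 287 CPM).

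In theca-like cells the comparisons with AMH had the most members past 1.5-fold, but on a background of many genes. Of 15 members that passed the filter, 0 were past the fold between doxorubicin and control (0.685% of 6275 genes), and 1, Col25a1, was higher in doxorubicin+AMH than in AMH (1.02% of genes). Between AMH and control 7 were higher and 1 lower, against 16.5% of genes. Between doxorubicin+AMH and doxorubicin 8 were higher and 1 lower, against 15.8% of genes. In both, Col1a1, Col1a2, Col4a4, Col4a5, Col6a3 and Col6a4 were higher and Col18a1 lower, against 12.1% of genes called in 1 direction in both. Of these, Col6a3 passed the filter through the libraries with AMH and Col18a1 through those without. The Col1a1 call for AMH over control, at a log2 ratio of 0.61, was kept under 4 of 10 alternative settings. The medians over the 15 members were 0.56 and 0.68 on the log2 scale, against -0.07 and -0.05 over all genes tested.

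Col1a2 was 289 CPM in control, 332 with doxorubicin, 586 with both agents and 506 with AMH. Its log2 ratios were 0.81 for AMH over control and 0.82 for doxorubicin+AMH over doxorubicin. Col6a3, a type VI chain, was 18.1, 20.1, 37.0 and 37.9 CPM in the same order. Col4a5 was 28.7, 30.1, 55.6 and 65.0 CPM, and Col1a1 was 32.5, 28.4, 55.2 and 49.4 CPM. For each of these 4 genes both libraries with AMH were above both without. With each cell gated by its own markers, several log2 ratios of AMH over control fell short of 1.5-fold. They were 0.26 for Col1a1, 0.47 for Col4a4, 0.41 for Col4a5 and 0.51 for Col6a3, while Col1a2 and Col6a4 stayed past it. For Col1a1 the class held 1.03 UMIs per cell, against 0.214 in erythroid-like cells and 1.32 in T or NK lymphocyte-like cells, or 0.209 in the latter without the control library. Col3a1 was 388, 412, 530 and 439 CPM, short of 1.5-fold, and its log2 ratios of 0.18 and 0.36 were -0.84 and -0.81 with a fixed mix of clusters. Col18a1 went the other way, with 34.8, 27.6, 14.1 and 10.4 CPM.

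The clusters that made up the class differed between the same libraries. Cluster 9, led by Cyp17a1, held 81.8% and 80.6% of the theca-like cells in control and doxorubicin but 8.85% and 7.0% in doxorubicin+AMH and AMH. Cluster 8, led by Lhcgr, held 4.93% and 5.91% of them in control and doxorubicin but 76.3% and 80.8% in the libraries with AMH. The summed level of the 7 theca markers was 11470, 11000, 3731 and 3325 CPM in the 4 libraries, and that of the 6 stroma markers, 3 of which are collagen-binding proteoglycans, was 170, 200, 646 and 782 CPM. The adventitial fibroblast markers summed to 117, 113, 237 and 211 CPM and the Schwann cell markers to 9.41, 13.7, 72.5 and 84.9 CPM. Their part in the collagen levels was not tested. Within clusters the order of the libraries differed. With a fixed mix of clusters the log2 ratios of Col1a2 were -0.69 and -0.59, those of Col1a1 -1.20 and -1.18, and those of Col6a3 -1.48 and -1.11. For doxorubicin+AMH over doxorubicin the fixed mix also turned the sign of Col4a4 (-0.0236), Col6a4 (-0.38) and Col18a1 (0.45), and Col18a1 was higher in all 3 clusters. Col4a5 kept its sign, at 0.70 for AMH over control and 0.071 for doxorubicin+AMH over doxorubicin. In cluster 9 Col1a2 was 138, 189, 353 and 332 CPM, in cluster 18 it was 1287, 1137, 1291 and 1264 CPM, and in cluster 8 it was 1185, 1179, 373 and 321 CPM. The control and doxorubicin values of cluster 8 rest on 42 and 36 cells, and the values of cluster 9 in the libraries with AMH on 66 and 65 cells. Col25a1, a transmembrane collagen, marked those few cells of cluster 8, with 533 and 232 CPM in control and doxorubicin against 21.9 and 15.5 CPM in doxorubicin+AMH and AMH.

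**Figure D4:**
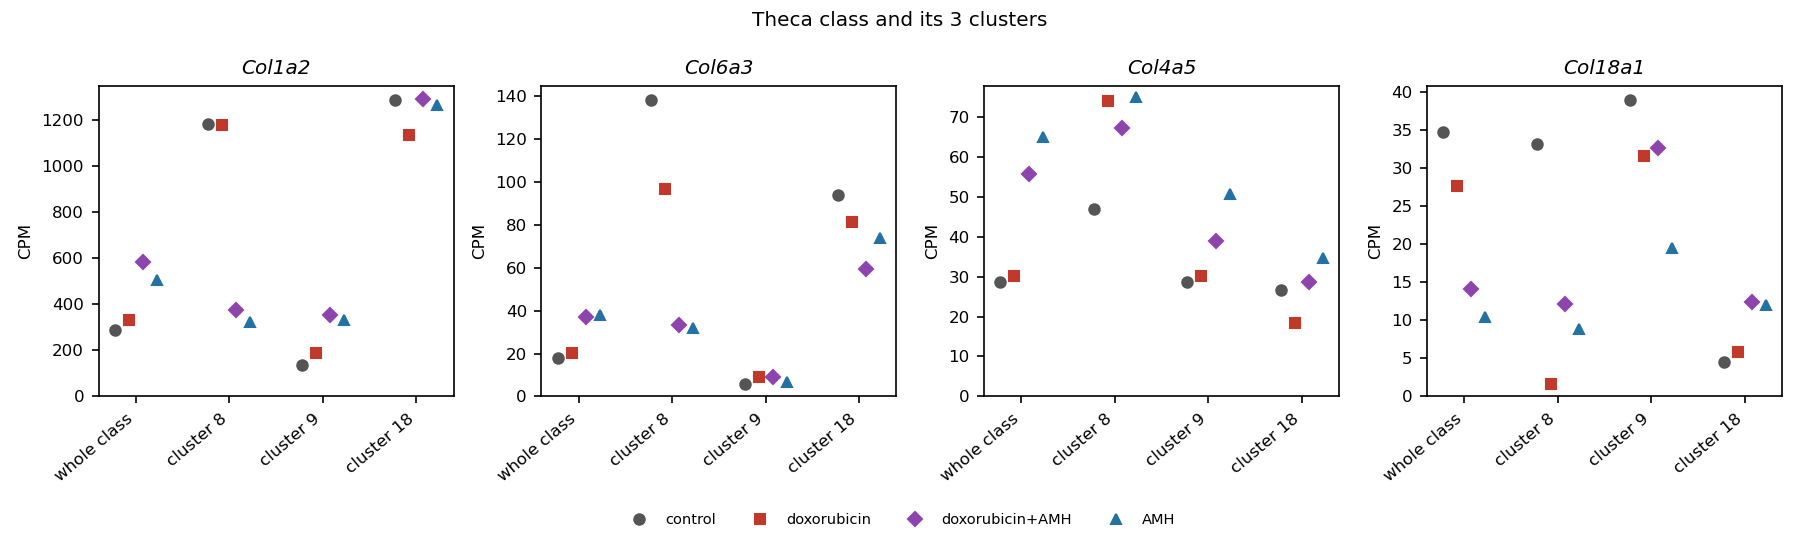
Levels in CPM of Col1a2, Col6a3, Col4a5 and Col18a1 in the theca-like class as a whole and in its clusters 8, 9 and 18. Each symbol is 1 library. In the whole class both libraries with AMH lie above the other 2 for Col1a2, Col6a3 and Col4a5, while within cluster 8 they lie below for Col1a2 and Col6a3.

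In stroma-like cells, the fibroblasts around the follicles, few members were past the fold. Of 22 members that passed the filter, 0 were past 1.5-fold between doxorubicin and control (0.417% of 6711 genes), and 0 between doxorubicin+AMH and AMH (0.462% of genes). In AMH 2 members, Col15a1 and Col6a3, were lower than in control (1.7% of genes), and 0 were past the fold between doxorubicin+AMH and doxorubicin (0.983% of genes). The summed fibrillar level was 4849 CPM in control, 4717 with doxorubicin, 4527 with both agents and 4001 with AMH. The AMH library was lowest, at a log2 ratio to control of -0.28 (interval -0.29 to -0.27), and doxorubicin differed from control by -0.04 (-0.05 to -0.03). Summed type IV levels were 1969, 1938, 1575 and 1421 CPM, so that both libraries with AMH were below both without. Col4a1 (1123, 1117, 891 and 778 CPM) was lower in all 5 stroma-like clusters for both AMH comparisons. The summed smooth muscle markers in the stroma-like class split the libraries likewise, in the other direction, at 772, 698, 1191 and 1076 CPM. The summed adventitial fibroblast markers split them in the same direction as type IV, at 722, 713, 661 and 623 CPM. The part of either marker set's cells in these levels was not tested.

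Col15a1 in stroma-like cells was 133 CPM in control, 117 with doxorubicin, 81.6 with both agents and 75.4 with AMH. The log2 ratio of AMH over control was -0.82 (interval -0.90 to -0.73), and -0.42 with a fixed mix of clusters. Cluster 10, led by Enpep, had the highest Col15a1 level of the 5, at 351, 310, 234 and 220 CPM, and made up 14.8%, 17.6%, 12.4% and 10.2% of stroma-like cells. Its share and its own level were both lowest in AMH. Col6a3 was 248, 206, 181 and 165 CPM, with a log2 ratio of -0.59 (-0.65 to -0.53) between AMH and control. That call lies at the edge of 1.5-fold (0.585 on the log2 scale), and it was kept under 3 of 10 alternative settings, over which the ratio ranged from -0.60 to -0.47.

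Adventitial fibroblast-like cells were fewer, with 136 to 303 per library, and many genes passed 1.5-fold there. Of 27 members, 6 were past the fold between doxorubicin and control (16.8% of 6339 genes) and 9 between doxorubicin+AMH and AMH (9.29%). Between AMH and control there were 2 (4.64%), and between doxorubicin+AMH and doxorubicin 9 (20.2%). Col4a3 and Col4a4 were lower in both doxorubicin comparisons, against 1.72% of genes. Col4a3 was 49.4 CPM in control, 11.9 with doxorubicin, 29.3 with both agents and 45.2 with AMH, from 39 to 184 UMIs. Col4a4 was 54.2, 23.6, 44.3 and 67.8 CPM. The log2 ratio of doxorubicin over control was -2.05 for Col4a3 (interval -2.58 to -1.54) and -1.20 for Col4a4 (-1.60 to -0.82). That of doxorubicin+AMH over AMH was -0.62 for Col4a3 (-1.14 to -0.13) and -0.61 for Col4a4 (-1.03 to -0.21). With each cell gated by its own markers, the ratios of Col4a4 were -0.23 and 0.82, and with doublets kept the second was 0.50. With doublets kept the second ratio of Col4a3 was -0.11. Over these 4 comparisons in the order given, 1, 3, 0 and 6 members were higher and 5, 6, 2 and 3 lower. The doxorubicin+AMH library was lowest for Col1a1 (6170, 6083, 3630 and 5150 CPM), and highest for Col6a4 (92.0, 102, 334 and 112 CPM) and Col18a1 (51.2, 44.4, 99.8 and 38.7 CPM). The summed smooth muscle markers in this class were 549, 385, 1081 and 728 CPM, highest in doxorubicin+AMH. The summed stroma markers were lowest there, at 10040, 8899, 7667 and 9182 CPM in the 4 libraries. What either has to do with these levels was not tested.

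In smooth muscle-like cells 3 of 19 members were lower in doxorubicin than in control (2.53% of 6514 genes), and the same 3, Col12a1, Col4a5 and Col4a6, were lower in doxorubicin+AMH than in AMH (2.18%). In both together 1.18% of genes were called. Between AMH and control 0 members were past the fold (1.12%), and between doxorubicin+AMH and doxorubicin 1, Col4a6, was higher (0.982%). Col4a6 was 61.7 CPM in control, 14.3 with doxorubicin, 24.3 with both agents and 50.5 with AMH, and it passed the filter through the libraries without doxorubicin. Col4a5 was 98.5, 50.7, 59.4 and 97.7 CPM, and Col12a1, a FACIT member of tendon and muscle sheaths, was 83.8, 36.3, 49.1 and 74.3 CPM. Both libraries with doxorubicin were below both without. The log2 ratio of Col12a1 for doxorubicin+AMH over AMH was -0.60, at the edge of 1.5-fold (0.585 on the log2 scale). That call was kept under 5 of 11 alternative settings, over which the ratio ranged from -0.90 to -0.10.

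In control the 3 genes were high in 1 cluster. Cluster 16, led by Des, the muscle intermediate filament gene, had 214 CPM of Col4a6 and 272 CPM of Col4a5 in control, against 14.97 and 45.3 CPM in the Actg2-led cluster 0. It made up 22.0% of smooth muscle-like cells in control and 21.3% in AMH, but 3.53% in doxorubicin (19 cells) and 7.32% in doxorubicin+AMH (55 cells). Oviduct-type epithelial-like cells, a class from outside the ovary, numbered 146, 1, 44 and 249 in the 4 libraries, also fewest in the libraries with doxorubicin, and what this shares with cluster 16 was not tested. Without cluster 16, 18 members passed the filter, and 0 of them were past 1.5-fold in either doxorubicin comparison. The control level of Col4a6 was then 14.97 CPM, below the 20 CPM of the filter. The log2 ratios of doxorubicin over control were -0.36 for Col4a6, 0.03 for Col4a5 and -0.58 for Col12a1. That of doxorubicin+AMH over AMH was -0.20 for Col4a6. Col12a1 was 51.4, 34.4, 49.1 and 52.7 CPM in cluster 0, and 189, 49.5 and 153 CPM in cluster 16 of control, doxorubicin+AMH and AMH, so that it was not high there in doxorubicin+AMH. Within cluster 16 Col4a5 was 272, 234 and 250 CPM in control, doxorubicin+AMH and AMH.

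**Figure D5:**
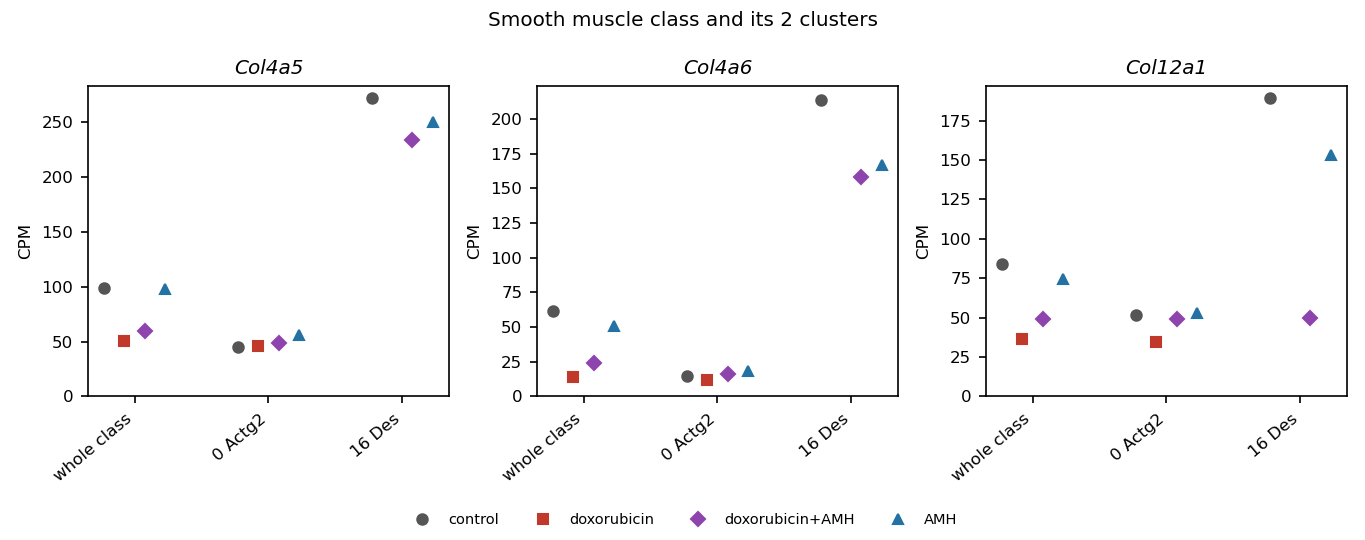
Levels in CPM of Col4a5, Col4a6 and Col12a1 in the smooth muscle-like class and in its clusters 0 (led by Actg2) and 16 (led by Des). Each symbol is 1 library, and the doxorubicin library is not drawn for cluster 16, where it has 19 cells. The doxorubicin and doxorubicin+AMH symbols are lowest in the whole class, while in cluster 0 the 4 libraries lie close together for Col4a5 (45.3 to 55.9 CPM), and doxorubicin is lowest for Col12a1 (34.4 against 49.1 to 52.7 CPM).

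In blood endothelial-like cells, which line the vessels, basement membrane and fibrillar genes both included members past the fold. The class had 62 to 172 cells per library, fewest in doxorubicin+AMH. None of the 4 ratios of Col4a1, Col15a1 or Col13a1 passed it. Col4a1 was 1879, 1840, 1573 and 1704 CPM in the 4 libraries, Col15a1 was 150, 125, 125 and 149 CPM, and Col13a1 was 50.3, 37.5, 52.3 and 43.6 CPM. Of 14 members, 4 were past 1.5-fold between doxorubicin and control (3.09% of 6901 genes), 10 between doxorubicin+AMH and AMH (11.5%), 7 between AMH and control (13.3%) and 4 between doxorubicin+AMH and doxorubicin (8.33%). Col4a4, a type IV chain, was 15.3, 23.4, 7.47 and 50.8 CPM, from 8 to 154 UMIs, and its mean of 24.2 CPM passed the filter through the AMH library. Fibrillar and type VI members were high in the AMH library. Col1a2 was 99.5, 149, 112 and 432 CPM, and Col3a1 was 68.7, 79.4, 68.1 and 337 CPM. The summed stroma markers in the class were 83.1, 125, 98.0 and 567 CPM and the smooth muscle markers 237, 407, 480 and 1228 CPM, also highest in the AMH library. The adventitial fibroblast markers were lowest in that library, at 982, 978.5, 1077 and 775 CPM. The part of cells with any of these markers in these levels was not tested. Ratios in pericyte-like cells (67 to 114 per library) and macrophage-like cells (91 to 189) are not described, other than Col1a1 in the latter.

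The enzymes and partners of collagen were followed in 7 lists with 73 genes. In stroma-like cells 49 passed the filter, and 1 gene was past 1.5-fold, in doxorubicin+AMH over AMH, where 0.462% of all genes were called. The chaperone and hydroxylase list, which covers the steps that fold and modify collagen chains, had 16 of 18 genes tested there with medians of -0.05, 0.07, -0.25 and -0.07 in the order doxorubicin over control, doxorubicin+AMH over AMH, AMH over control and doxorubicin+AMH over doxorubicin. In granulosa-like cells 28 passed and 1 was lower in each AMH comparison, a share near the 2.96% and 3.75% of all genes called there. In theca-like cells 37 passed, of which 10 were higher and 4 lower in AMH than in control, and 7 were higher and 3 lower in doxorubicin+AMH than in doxorubicin, where 16.5% and 15.8% of all genes were called.

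Of 6 collagen-binding proteoglycans listed, 4 passed the filter in theca-like cells, Lum and Bgn only through the libraries with AMH, and both libraries with AMH were above both without for each of the 4. Decorin (Dcn), which coats collagen fibrils, was 43.4, 51.3, 207 and 248 CPM in the 4 libraries. Biglycan (Bgn) was 13.6, 18.7, 95.8 and 97.1 CPM, and osteoglycin (Ogn) 88.2, 102, 285 and 365 CPM. Dcn, Lum and Ogn are also markers of the stroma list, and clusters 9 and 8 again make up most of the class in different libraries. Of the list for the removal of procollagen ends, Adamts2 was higher (32.2, 31.5, 65.6 and 59.2 CPM) and Pcolce was lower (272, 292, 142 and 128 CPM). The laminin genes Lama1 (194, 165, 84.0 and 86.3 CPM) and Lama4 (154, 140, 63.6 and 73.4 CPM) were lower too. In smooth muscle-like cells the cross-linking enzyme Lox was 17.2, 27.8, 23.4 and 13.7 CPM, and it passed the filter through the libraries with doxorubicin. In adventitial fibroblast-like cells Timp3, an inhibitor of matrix proteases, was lower in both, at 194, 60.01, 143 and 218 CPM.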

How the data were processed

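Droplet single-cell RNA libraries were made with a kit that captures transcript ends, 1 library per group from pooled ovaries. The deposited values are raw UMI counts, and per the file headers Cell Ranger 7.0.0 wrote them. R 4.2.0, Seurat 4.1.0 and mm10 are named per the submitters' processing notes. Whether introns or strand were counted is not given in the sources used here.

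A cell was kept from 1000 UMIs upward if mitochondrial genes took no more than 20% of them. The doublet caller's automatic threshold marked 0 or 1 cells per library, so the highest scores were removed at 0.8% per 1000 cells (328 to 590 per library). Cells were clustered with scanpy 1.11.5, leidenalg 0.10.2 and igraph 0.11.9 (2000 variable genes, 30 components, 20 neighbours, resolution 1.0), leaving out the collagen genes and the genes of the 7 pathway lists. Clusters were named from marker lists, with naming thresholds set after values were seen. Members and lists were chosen with earlier results of these data known, and the stroma markers Dcn, Lum and Ogn are also in the proteoglycan list. UMIs were summed per class and library, with exact Poisson intervals and exact conditional intervals for ratios (scipy 1.17.1). With 1 library per group no test was made. Named ratios are members past 1.5-fold in 1 direction in both comparisons of a treatment, and up to 25 members by level. The median UMIs per cell were 9834 to 13575. Ratios were checked on simulated data. Alternatives varied the cell filters, doublets, clustering, gating, scaling, the gene filter, the pseudocount (5 CPM), cell weights and the mix of clusters.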

Additional observations from a re-analysis of the deposited data

Results flagged for a closer look

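Col1a1 went in opposite directions in 2 cell classes in the AMH comparisons. In theca-like cells the ratio closer to 0 of AMH over control and doxorubicin+AMH over doxorubicin was 0.61 on the log2 scale, so that both were above 0. In macrophage-like cells the ratio closer to 0 was -0.68, so that both were below 0. Macrophage-like Col1a1 rests on 84, 23, 17 and 53 UMIs in control, doxorubicin, doxorubicin+AMH and AMH. It averaged 0.319 UMIs per cell, against 0.214 in erythroid-like, 0.37 in B lymphocyte-like and 1.32 in T or NK lymphocyte-like cells (0.209 without the control library, which held 249 of their UMIs), which should lack the gene, so no direction in macrophage-like cells is read from it. Theca-like Col1a1 averaged 1.03 UMIs per cell. The difference between the classes was not tested, since each group has 1 library. With a fixed mix of clusters the theca-like ratios were -1.20 and -1.18.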

How the results depend on the processing

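No paired analysis was possible because each group has 1 library. Over 42 named ratios and 438 alternative runs the sign was kept in 415, and 276 of 354 runs of the 34 ratios past 1.5-fold stayed past it. The cause of a move was not tested. All ratios below are log2, in the order doxorubicin over control, doxorubicin+AMH over AMH, AMH over control and doxorubicin+AMH over doxorubicin. Median-of-ratios scaling shifted all genes by 0.114 (granulosa-like, AMH over control), 0.133 (adventitial fibroblast-like, doxorubicin over control) and -0.121 (the same class, doxorubicin+AMH over doxorubicin). Few cells limit the adventitial fibroblast-like values.

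With a fixed mix of clusters, signs turned in theca-like cells for AMH over control and doxorubicin+AMH over doxorubicin of Col1a1 (-1.20 and -1.18), Col1a2 (-0.69 and -0.59) and Col6a3 (-1.48 and -1.11). The ratios of Col3a1 (-0.84 and -0.81), the fibrillar sum (-0.74 and -0.66) and the type IV sum (-0.25 and -0.25) turned too, and for doxorubicin+AMH over doxorubicin those of Col4a4 (-0.0236), Col6a4 (-0.38) and Col18a1 (0.45). With a mitochondrial limit of 10% theca-like Col3a1 in AMH over control was -0.0816. Granulosa-like Col18a1 turned to 0.42 and 0.16, and without the Cntn4 cluster to 0.32 and 0.47. Smooth muscle-like Col4a5 in doxorubicin over control was 0.0277 with the fixed mix and without the Des cluster. Adventitial fibroblast-like Col4a4 in doxorubicin+AMH over AMH was 0.82 with each cell gated, 0.29 with at least 500 UMIs and 0.50 with doublets kept. With each cell gated, the adventitial fibroblast-like fibrillar sum in doxorubicin over control was 0.26. Leaving out the Des or the Cntn4 cluster, or the control library of the lymphocyte-like reference, was chosen after seeing the data.

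The stroma-like fibrillar sum was -0.12, -0.0153, -0.42 and -0.32 with each cell gated. With at least 500 UMIs its last 3 ratios were 0.13, -0.25 and -0.0806. With doublets kept it was 0.0026, 0.0964, -0.24 and -0.15. Median-of-ratios scaling gave -0.0196, 0.20, -0.21 and 0.00871, and a fixed mix -0.00925, 0.11, -0.21 and -0.0931. With cells weighted equally the first, second and last were 0.000673, 0.14 and -0.14.

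The granulosa-like type IV sum was -0.21 and -0.37 (first and last) with each cell gated, -0.31 in AMH over control with a mitochondrial limit of 10%, and -0.27 in doxorubicin+AMH over AMH with doublets kept. Median-of-ratios scaling gave -0.12, -0.16 and -0.33 for the first and the last 2. Equal weights gave -0.22, -0.315 and -0.34 for the last 3, and a fixed mix -0.067, -0.21 and -0.13. Without the Cntn4 cluster doxorubicin over control was -0.14.

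Without a filter on low genes, the members past 1.5-fold numbered 9, 7, 17 and 17 in granulosa-like, 4, 9, 21 and 23 in theca-like, 6, 7, 10 and 10 in stroma-like and 18, 11, 8 and 13 in smooth muscle-like cells. In adventitial fibroblast-like cells they numbered 14, 9 and 16 (all but doxorubicin+AMH over AMH). With a mean of at least 50 CPM they numbered 0, 0 and 1 in granulosa-like and 0, 1 and 2 in theca-like cells (last 3), 2 and 5 in adventitial fibroblast-like cells (first and last) and 0 in smooth muscle-like cells (last). A pseudocount of 5 CPM left 1 in granulosa-like and 1 in stroma-like cells for AMH over control, and 5 in adventitial fibroblast-like cells for doxorubicin+AMH over AMH. Median-of-ratios scaling left 1 in granulosa-like and 1 in stroma-like cells for AMH over control. Without the Des cluster, 0 of the 18 smooth muscle-like members that passed the filter were past the fold in the first, second and last comparison.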

Other observations

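Col13a1, a transmembrane collagen, averaged 15.3 CPM in stroma-like cells and so lay below the filter of 20 CPM. It was singled out after its values were seen. Its level was 10.7 CPM in control, 11.8 with doxorubicin, 20.5 with both agents and 18.4 with AMH, from 339 to 539 UMIs per library. Both libraries with AMH were above both without.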
